A study of Mus musculus with 8 samples.

Results

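Transcript levels were compared between epiblast stem cells (EpiSC), the cultured form of primed pluripotency, and the uncultured inner cell mass (ICM) of the mouse blastocyst. The comparison took the 2 arrays labelled EpiSC and the 2 labelled ICM, 4 of the 8 arrays of the series. All 8 were Affymetrix Mouse Gene 2.1 arrays, and all samples were wild type and of the C57BL/6J strain. EpiSC were grown in KODMEM with 20% serum replacement (KSR) and FGF2 on mouse embryonic fibroblasts (MEF), which serve as feeders. ICM was isolated by immunosurgery, which lyses the outer trophectoderm, from blastocysts of embryonic day 3.5, and was not cultured. The labels name day 3.5 embryos as the origin of the EpiSC as well, and do not say whether the EpiSC arrays come from 1 line or clone, or how many embryos were pooled for an ICM array. Another group, used here only for side-by-side values, was ESC, naive embryonic stem cells grown in DMEM with 15% serum (FCS), LIF and the inhibitor pair 2i, without feeders. The remaining group, FGF-ESC, was grown in the medium of the EpiSC on feeders. RNA came from one column kit for the cultured cells (NucleoSpin II) and another for ICM (NucleoSpin XS), and all of it was amplified with the same kit, so culture, kit and cell state changed together between EpiSC and ICM and cannot be told apart.

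The ICM holds the precursors of the epiblast, which will form the body, mixed with those of the primitive endoderm, a yolk sac lineage. The naive state, which ESC keep under LIF and 2i, is held by a circuit of transcription factors that includes Klf2, Klf4, Klf5, Tbx3, Tfcp2l1 and Esrrb around the shared core of Pou5f1, Sox2 and Nanog. After implantation the epiblast turns to a primed state that depends on FGF and Nodal or activin signalling, expresses Fgf5 and Pou3f1 and readies genes of gastrulation, and EpiSC are its counterpart in culture. Values below are levels on the log2 intensity scale, on which a difference of 1 is a 2-fold change, given for the first and then the second array of a group. A level of one gene cannot be set against that of another on these arrays. Differences are EpiSC minus ICM with limma's SE and its adjusted p (Benjamini-Hochberg over all tested genes), with n = 2 arrays in each group. The labels do not state whether a group's arrays are separate cultures or embryo pools, so the p-values cover no more than the difference between these samples, and that may be technical.

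Of 22180 genes with a probe set of their own, 13597 were bright enough to be tested, meaning that 2 or more arrays exceeded 4.24, the median over every probe set and array. Of these, 2078 passed the threshold (adjusted p below 0.05 with a difference of 1 or more on the log2 scale), which is 15.3% of the genes tested. EpiSC were higher than ICM for 1153 genes (8.48%) and lower for 925 (6.80%). Every count of a list below is to be read beside these shares over all tested genes. A list member tested through 1 group alone had to be lower in the other, so counts over lists describe and carry no support. Changes of at least 4 on the log2 scale were fewer upwards than downwards, 23 against 48 genes. The arrays of a group were close to each other: over tested genes, EpiSC arrays correlated at r = 0.991 and ICM arrays at 0.983, where genes do not count as replicates. The labels were checked against defining markers: Pou5f1, Nanog and Sox2 stood above the floor on all 4 arrays. Fgf5 and Pou3f1 were high in EpiSC, and Zfp42 and Gata6 were high in ICM. Not every marker went this way, and Otx2, Esrrb and Prdm14 did not pass, as given below. Over the whole lists 16 of 25 primed genes rose and 2 fell, and 19 of 29 naive genes fell and 2 rose. In samples of many cells, fewer cells of a type and less RNA per cell give the same fall and cannot be told apart.

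**Figure D1:**
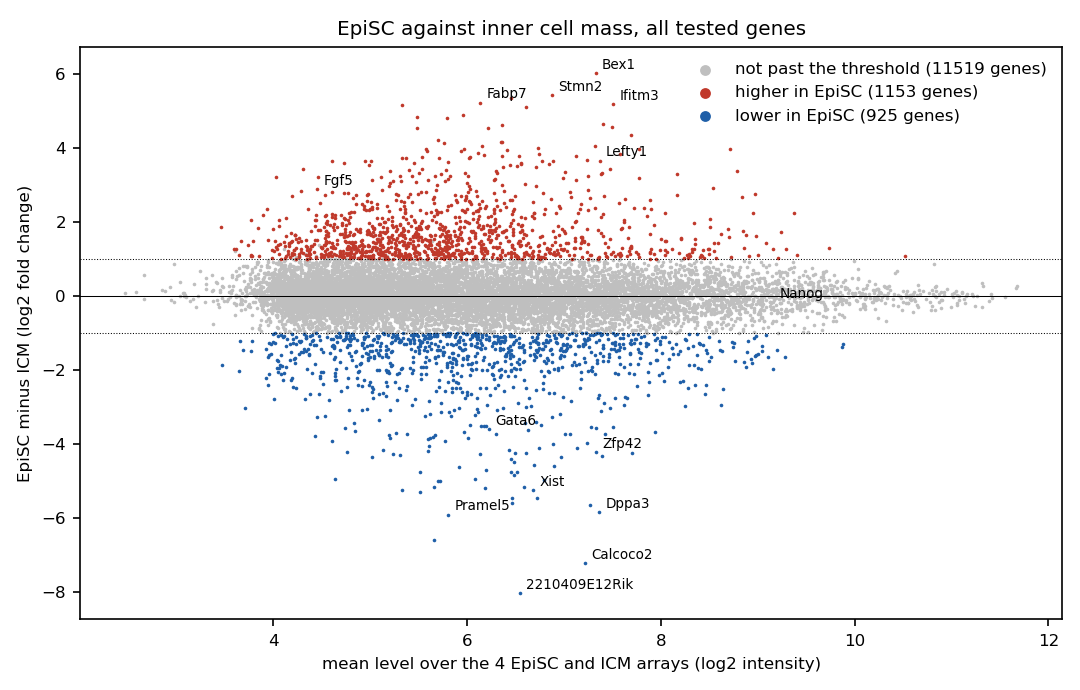
Each point is 1 of 13597 tested genes, with its mean level over the 4 arrays (log2 intensity) on the x axis and EpiSC minus ICM (log2 fold change) on the y axis; dotted lines mark 1 and -1. The 1153 red genes passed the threshold as higher in EpiSC and the 925 blue ones as lower, and the lowest point, 2210409E12Rik, lies at -8.03.

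The genes gained most strongly by EpiSC were mostly genes that ICM arrays read near the floor. Bex1, an X-linked gene of the brain-expressed X-linked family, read 10.32 and 10.38 in EpiSC against 4.93 and 3.70 in ICM. Its log2 fold change of 6.03 ± 0.33 (adjusted p = 5.37e-06) was the largest rise. Stmn2, a stathmin that binds tubulin in neurons, read 9.56 and 9.62 in EpiSC against 4.23 and 4.10 in ICM (5.43 ± 0.14, adjusted p = 2.13e-07). Both genes were as high in ESC, where Bex1 read 10.26 and 10.29 and Stmn2 9.65 and 9.62, and EpiSC minus ESC was 0.07 ± 0.33 and -0.04 ± 0.14 with adjusted p = 0.916 and 0.897. The same held for the interferon-induced membrane protein Ifitm3 (10.16 and 10.06 in EpiSC against 4.81 and 5.02 in ICM, with 10.16 and 10.07 in ESC) and for Bex2. For these 4 genes ESC lay with EpiSC and apart from ICM.

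Another group among the largest rises was high in EpiSC and low in both ICM and ESC. Car2, a carbonic anhydrase, read 9.11 and 9.14 in EpiSC against 3.54 and 4.03 in ICM and 4.50 and 4.20 in ESC; the difference from ICM was 5.34 ± 0.20 and that from ESC 4.78 ± 0.20 (adjusted p = 8.34e-07 and 6.68e-06). Fabp7, the brain fatty acid binding protein of neural progenitors, read 9.36 and 8.15 in EpiSC against 3.52 and 3.52 in ICM, so the EpiSC arrays differed from each other by more than 1 while both stood far above ICM. Its log2 fold change was 5.23 ± 0.32 (adjusted p = 8.89e-06), and 5.28 ± 0.32 against ESC. Spink1, a secreted trypsin inhibitor, rose by 4.84 ± 0.26 and Mup6, a major urinary protein from a family of near-identical copies whose probes may not separate its members, by 4.90 ± 0.22 (adjusted p = 5.49e-06 and 1.93e-06). Rtp4, an interferon-induced chaperone of receptors, read 8.42 and 7.98 in EpiSC against 3.5 and 3.26 in ICM, and its ESC arrays read 3.30 and 3.37. The heparan sulfatase Sulf1 (4.64), the thyrotropin-releasing hormone gene Trh (4.65) and the small Y RNA gene Rny3 (5.18) complete the 12 largest rises. In 9 of these 12 the mean of the ICM arrays lay under the floor of 4.24, so these fold changes rest on a group near background.

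Among the largest falls were genes of the preimplantation embryo that were close to background on every cultured array. LOC100039010, an unnamed gene, read 2.22 and 2.5 in EpiSC against 9.01 and 8.92 in ICM and 2.25 and 2.23 in ESC (-6.61 ± 0.14, adjusted p = 1.11e-07). Pramel5, of the Prame-like family expressed in oocytes and early embryos, read 2.88 and 2.82 in EpiSC against 8.90 and 8.62 in ICM and 2.91 and 2.90 in ESC (-5.91 ± 0.13, adjusted p = 1.11e-07). Khdc1a and Khdc1c, from a cluster of KH-domain genes active in oocytes and early embryos, had log2 fold changes of -5.61 and -5.23, and Khdc3, a component of the maternal complex under the egg membrane, of -5.47. Fbp2, a fructose bisphosphatase of muscle, read 3.89 and 4.10 in EpiSC against 9.43 and 9.48 in ICM, and ESC (3.86 and 3.76) were as low as EpiSC. For none of these 6 genes did EpiSC differ from ESC past the threshold, and the largest such difference was -0.35 ± 0.17 for Khdc3 (adjusted p = 0.205).

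Of the other 6 large falls, 5 were of genes that stood higher in ESC than in EpiSC, with Xist the exception. The uncharacterised gene 2210409E12Rik read 2.21 and 2.85 in EpiSC against 10.57 and 10.55 in ICM (-8.03 ± 0.23, adjusted p = 2.53e-07), while ESC read 9.72 and 9.87. Calcoco2, a receptor for selective autophagy, read 3.61 and 3.59 in EpiSC against 10.70 and 10.95 in ICM (-7.23 ± 0.15, adjusted p = 1.11e-07), with 7.83 and 8.04 in ESC and 5.07 and 5.32 in FGF-ESC. The groups ran from ICM through ESC and FGF-ESC down to EpiSC without overlap. Dppa3, a factor that protects the maternal genome of the zygote from demethylation, read 4.16 and 4.72 in EpiSC against 10.38 and 10.19 in ICM and 6.87 and 6.91 in ESC. Its difference was -5.84 ± 0.26 (adjusted p = 1.94e-06). Fbxo15, an F-box gene bound by the pluripotency factors, fell (-5.67 ± 0.45, adjusted p = 3.54e-05), and its EpiSC arrays were apart, at 3.62 and 5.25. The zinc finger gene Zfp985 (-5.29 ± 0.12) and the X-inactivation RNA Xist (-5.26 ± 0.23) complete the 12 largest falls.

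**Figure D2:**
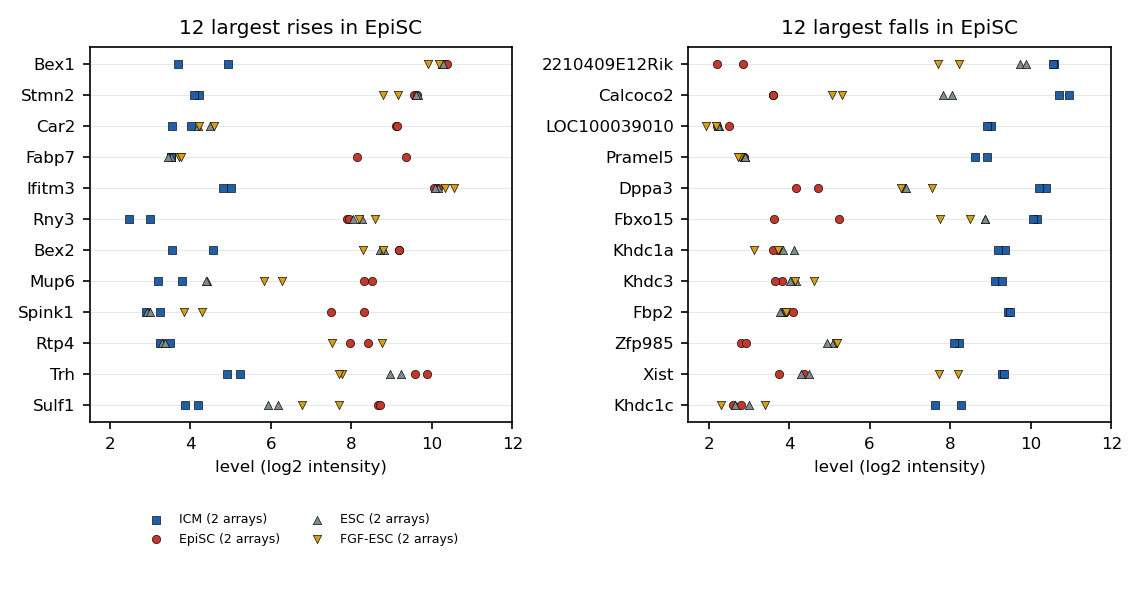
Levels (log2 intensity, x axis) of the 12 largest rises and 12 largest falls on each of the 8 arrays, 2 per group. Bex1, Stmn2, Ifitm3, Bex2 and Rny3 sit together in EpiSC, ESC and FGF-ESC and apart from ICM, whereas Car2 and Fabp7 are high in EpiSC alone; among the falls, Pramel5, Khdc3 and Fbp2 are high in ICM alone.

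The core factors Nanog, Sox2 and Pou5f1 did not pass between EpiSC and ICM. Nanog read 9.13 and 9.03 in EpiSC against 9.22 and 9.25 in ICM (-0.15 ± 0.21, adjusted p = 0.608), and Sox2 read 7.99 and 8.18 in EpiSC against 7.87 and 7.74 in ICM (0.28 ± 0.20, adjusted p = 0.312). Pou5f1 read 6.22 and 6.19 in EpiSC against 6.47 and 6.66 in ICM; its difference of -0.36 ± 0.12 had an adjusted p of 0.042 but was under the fold threshold. Sall4 (0.17 ± 0.13) and the Nodal co-receptor Tdgf1 (0.68 ± 0.12) also stayed under it. ESC were higher than EpiSC for Sox2 (EpiSC minus ESC -1.38 ± 0.20, adjusted p = 0.00195). Of 15 tested genes of the core list, 4 rose and 3 fell, with a median of 0.28 beside 0.01 over all tested genes. The RNA-binding proteins Lin28a, which blocks let-7 maturation, and Lin28b rose by 1.79 ± 0.12 and 1.61 ± 0.19 (adjusted p = 1.71e-05 and 0.000288). Zscan10, a zinc finger partner of Pou5f1 and Sox2, rose by 1.65 ± 0.16. Utf1, a chromatin protein of pluripotent cells, rose by 1.13 ± 0.22 and did not pass without ICM replicate 1 (0.76; adjusted p = 0.0104). Its ICM arrays read 7.56 and 8.31. The members that fell were Fbxo15 and the germ-cell and pluripotency chromatin genes Dppa2 and Dppa4. Dppa4 read 4.37 and 4.58 in EpiSC against 8.79 and 8.68 in ICM and Dppa2 5.51 and 5.65 in EpiSC against 9.70 and 9.97 in ICM, differences of -4.26 ± 0.16 and -4.26 ± 0.15 (adjusted p = 8.34e-07 and 6.8e-07).

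Most genes of the naive list were lower in EpiSC. Of 29 naive genes, all 29 tested, 19 fell, 2 rose and 8 did not pass, with a median of -1.86. Tbx3, a T-box factor of the circuit, read 4.09 and 4.39 in EpiSC against 8.63 and 8.83 in ICM (-4.49 ± 0.14, adjusted p = 3.46e-07). Zfp42, also called Rex1 and widely used as a marker of the naive state, read 4.91 and 5.52 in EpiSC against 9.43 and 9.45 in ICM (-4.22 ± 0.21, adjusted p = 3.72e-06). Nr5a2, a nuclear receptor that can activate Pou5f1, read 4.76 and 5.0 in EpiSC against 8.82 and 8.97 in ICM (-4.01 ± 0.14). No EpiSC array reached an ICM array for any of these genes. Tfcp2l1 (-3.41 ± 0.16), Klf5 (-2.96 ± 0.27), Klf4 (-2.48 ± 0.13) and Klf2 (-1.86 ± 0.21) fell with adjusted p = 2.52e-06, 7.57e-05, 5.17e-06 and 0.000233. Tet2, a dioxygenase that oxidises 5-methylcytosine, read 3.77 and 4.23 in EpiSC against 8.09 and 8.43 in ICM (-4.26 ± 0.22), and the endothelial and ICM surface protein Pecam1 (-3.80 ± 0.18) and the Ets-family factor Spic (-4.77 ± 0.12) fell as well. Spic was also low in ESC (3.78 and 3.86), unlike the other genes named in this list so far.

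Several naive factors did not pass. Esrrb, an orphan nuclear receptor of the circuit, read 5.38 and 5.43 in EpiSC against 5.48 and 5.87 in ICM (-0.27 ± 0.16, adjusted p = 0.231), and was higher in ESC (6.74 and 6.49). Prdm14, which represses FGF receptor genes in naive cells, read 3.44 and 3.84 in EpiSC against 4.34 and 4.16 in ICM (-0.61 ± 0.20, adjusted p = 0.0428), with 5.21 and 5.41 in ESC. Fgf4, the ligand through which the epiblast instructs its neighbours, read 5.79 and 6.35 in EpiSC against 6.64 and 6.71 in ICM (-0.61 ± 0.23, adjusted p = 0.0641), and 8.06 and 8.04 in ESC. EpiSC minus ESC passed for all 3, at -1.21 ± 0.16, -1.67 ± 0.20 and -1.98 ± 0.23 (adjusted p = 0.00132, 0.000805 and 0.000599). The 2 naive genes that rose were Myc (1.12 ± 0.18, adjusted p = 0.0016) and the homeobox gene Gbx2 (1.63 ± 0.33, adjusted p = 0.00503). Gbx2 spread widely within each group, with 7.15 and 6.24 in EpiSC against 4.66 and 5.47 in ICM, and the groups did not overlap; its other probe set did not pass (0.42, adjusted p = 0.0604).

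Most primed markers were higher in EpiSC. Of 25 tested genes of the primed epiblast list, 16 rose, 2 fell and 7 did not pass, with a median of 1.77. Fgf5, the classical marker of postimplantation epiblast, read 5.72 and 6.07 in EpiSC against 3.15 and 2.87 in ICM (2.89 ± 0.17, adjusted p = 6.8e-06). Pou3f1, also called Oct6, read 7.43 and 7.35 in EpiSC against 4.13 and 4.29 in ICM (3.18 ± 0.18, adjusted p = 6.25e-06). The SRY-related factor Sox4 read 7.96 and 7.65 in EpiSC against 3.40 and 3.78 in ICM (4.21 ± 0.27, adjusted p = 1.18e-05). For each of these genes both EpiSC arrays lay at least 2 units above both ICM arrays, and the other probe set of Sox4 gave 2.27. The arginine transporter Slc7a3 rose by 4.16 ± 0.13, the ectonucleotidase Enpp3 by 3.18 ± 0.14 and Tcf7l1, the repressor of the Wnt response in pluripotent cells, by 2.80 ± 0.19. ESC too were well above ICM for Slc7a3 (7.43 and 7.43) and Tcf7l1 (6.98 and 7.0), whereas Enpp3 (6.29 and 6.31) was not. Cdh2, N-cadherin, rose by 3.24 ± 0.44 (adjusted p = 0.000651) from ICM arrays that read 4.37 and 3.25.

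Otx2, a homeobox factor that drives the exit to the primed state, did not differ past the threshold. It read 5.76 and 6.17 in EpiSC against 6.12 and 6.08 in ICM (-0.13 ± 0.19, adjusted p = 0.62) and the arrays of the groups overlapped. Against ESC it passed, at 1.07 ± 0.19 (adjusted p = 0.00525), with ESC at 4.93 and 4.87. Etv5, an ETS factor downstream of FGF, was level (10.28 and 10.35 in EpiSC against 10.14 and 10.23 in ICM; 0.12 ± 0.12). The primed-list members that fell were Grhl2, an epithelial factor (-1.83 ± 0.16), and the oxytocin gene Oxt (-1.40 ± 0.16), with adjusted p = 6.27e-05 and 0.000247.

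**Figure D3:**
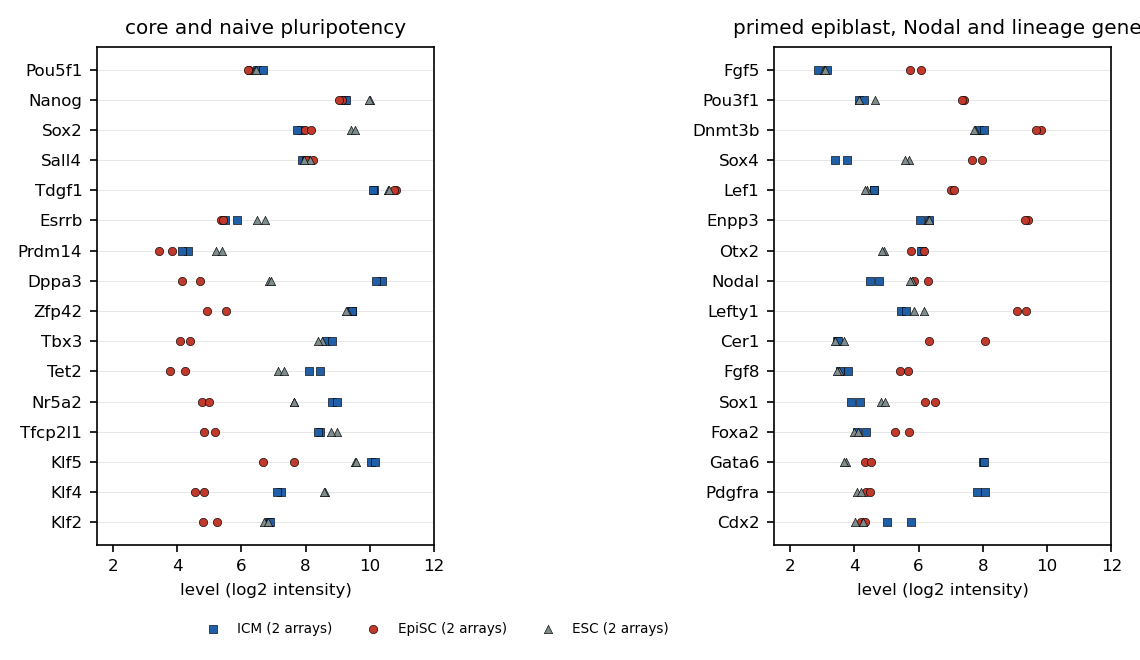
Levels (log2 intensity, x axis) of core and naive genes on the left and of primed, Nodal and lineage genes on the right, with 1 symbol per array for ICM, EpiSC and ESC. Pou5f1, Nanog and Sall4 lie close together, the naive genes from Dppa3 to Klf2 are lower in EpiSC than in ICM, and Fgf5, Pou3f1, Lefty1 and Cer1 are higher; Gata6 and Pdgfra are high in ICM alone of these groups.

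The Nodal ligand and several of its inhibitors were higher in EpiSC. Of the pathway's tested genes 30% were higher and 5% lower, beside 8.48% and 6.80% of all tested genes. Of 20 tested genes of the pathway 6 rose and 1 fell (2 without EpiSC replicate 2 or ICM replicate 1), with a median of 0.46. The ligand Nodal read 5.87 and 6.29 in EpiSC against 4.48 and 4.76 in ICM (1.46 ± 0.20, adjusted p = 0.000758), and ESC, at 5.81 and 5.72, did not differ from EpiSC past the threshold (0.32 ± 0.20, adjusted p = 0.348). Lefty1, a secreted Nodal antagonist that is itself a Nodal target, read 9.06 and 9.35 in EpiSC against 5.46 and 5.61 in ICM (3.67 ± 0.16, adjusted p = 1.53e-06). Cer1, a second secreted antagonist, read 6.32 and 8.08 in EpiSC against 3.45 and 3.48 in ICM (3.73 ± 0.46, adjusted p = 0.000371). Its EpiSC arrays were 1.76 apart and both stood above ICM. Lefty1 and Cer1 also rose against ESC, by 3.18 ± 0.16 and 3.67 ± 0.46. The activin antagonist Fst rose by 2.00 ± 0.21 and the inhibitory Smad7 by 1.62 ± 0.11 (adjusted p = 0.000165 and 1.84e-05). The intracellular transducers Smad2 and Smad4 and the receptor Acvr2a stayed under the threshold, at -0.36 ± 0.15, 0.47 ± 0.13 and -0.31 ± 0.13. The proprotein convertase Pcsk6, which cleaves the Nodal precursor, fell (-1.99 ± 0.14, adjusted p = 1.84e-05).

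In the FGF and ERK list 11 of 31 tested genes rose and 4 fell (median 0.68); without EpiSC replicate 1 the falls numbered 2. With all arrays the shares were 35.5% higher and 12.9% lower, beside 8.48% and 6.80% of all tested genes. Ligands differed by member. Fgf5 and Fgf8 rose, Fgf8 by 1.87 ± 0.20 (adjusted p = 0.000198), and Fgf4 did not pass. Among receptors, Fgfr2, the form that marks primitive endoderm precursors and trophectoderm, fell (-1.96 ± 0.17, adjusted p = 5.71e-05), and Fgfr1 read 7.57 and 7.62 in EpiSC against 6.88 and 6.80 in ICM, a difference of 0.76 ± 0.21 that was under the fold threshold. Immediate targets were higher: the phosphatase Dusp6 read 9.75 and 9.65 in EpiSC against 8.11 and 8.02 in ICM (1.64 ± 0.12, adjusted p = 1.9e-05) and the early-response factor Egr1 8.61 and 8.92 in EpiSC against 5.90 and 6.22 in ICM (2.70 ± 0.23, adjusted p = 5.07e-05). ESC, which were grown with 2i, read 7.50 and 7.57 and 6.39 and 6.5. Dusp6 differed by more on its other probe set (3.72). Etv1 rose by 3.56 ± 0.30, with 0.92 on its other probe set, under the fold threshold, while Etv5 and the inhibitor Spry2 (-0.39 ± 0.14) did not pass. EpiSC medium contained FGF2 and the ICM was not cultured, and the part of the medium in these differences was not tested.

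WNT pathway genes rose in 7 of 30 tested members and 1 fell (2 without EpiSC replicate 2), with a median of 0.32. With all arrays the shares were 23.3% higher and 3.33% lower, beside 8.48% and 6.80% of all tested genes. Lef1, the nuclear partner of beta-catenin, read 7.02 and 7.09 in EpiSC against 4.61 and 4.6 in ICM (2.45 ± 0.17, adjusted p = 1.77e-05). The ligand Wnt8a rose by 2.13 ± 0.21, the agonist Rspo3 by 2.28 ± 0.25 and its receptor Lgr4 by 1.90 ± 0.16 (adjusted p = 0.000112, 0.000212 and 4.81e-05). Lef1, Wnt8a and Rspo3 were low in ESC too, at 4.39 and 4.32, 3.73 and 3.68 and 4.23 and 4.28. Porcn, the enzyme that acylates Wnt ligands, fell (-1.26 ± 0.12, adjusted p = 0.000108). In the LIF and Stat3 list 3 of 22 tested genes rose (13.6%) and 4 fell (18.2%), beside 8.48% and 6.80% of all tested genes (median -0.30). The falls were Stat3 itself (-1.57 ± 0.27, adjusted p = 0.00216) with Klf4, Klf5 and Tfcp2l1. Feedback inhibitors of the same pathway, Socs3 and Socs2, rose by 1.39 ± 0.14 and 1.45 ± 0.13, but with the mean of a gene's probe sets in place of the brightest they did not pass (0.77 and 0.83) and 1 gene of the list rose. For Socs3 the ESC arrays, in LIF medium, were highest at 7.62 and 7.57, against 5.94 and 6.19 in EpiSC against 4.56 and 4.79 in ICM. In the BMP list 3 of 17 rose (17.6%, beside 8.48% of all tested genes), Fst, Smad7 and the transducer Smad1 (1.49 ± 0.12). The target genes Id2 and Id3 stayed at -0.14 ± 0.15 and -0.31 ± 0.29.

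Genes of gastrulation changed in both directions, and some genes of the early neural lineage were higher in EpiSC. Of 18 tested gastrulation genes 5 rose (27.8%) and 3 fell (16.7%), beside 8.48% and 6.80% of all tested genes. The median was -0.06, and the 3 falls are not named here. Mixl1, a primitive streak homeobox gene, read 6.07 and 5.84 in EpiSC against 3.87 and 4.39 in ICM (1.82 ± 0.21, adjusted p = 0.000266) and Lhx1, of the node and anterior streak, 5.61 and 5.96 in EpiSC against 3.62 and 3.77 in ICM (2.09 ± 0.18, adjusted p = 5.94e-05). Foxa2, a factor of definitive endoderm and node, rose by 1.26 ± 0.18, with Cer1 and Fgf8 the remaining rises. Eomes (6.11 and 5.68 in EpiSC against 5.57 and 5.75 in ICM), Gsc (4.80 and 4.99 in EpiSC against 5.23 and 5.47 in ICM) and Sox17 (5.0 and 5.29 in EpiSC against 5.13 and 5.31 in ICM) did not pass. The streak gene known as T has no probe set of its own among those used here. Of 17 tested neural genes 9 rose and the other 8 did not pass, with a median of 1.55. Both arrays were above the floor for 15 of these 17 genes in EpiSC and 8 in ICM. A member tested through EpiSC alone had to be higher there, so these counts describe the list and carry no support. Sox1, the earliest neuroectoderm marker of the Sox family, read 6.51 and 6.18 in EpiSC against 4.18 and 3.90 in ICM (2.31 ± 0.18, adjusted p = 2.76e-05). The neuronal tubulin Tubb3 rose by 3.22 ± 0.23, the retinoic acid binding protein Crabp2 by 2.66 ± 0.17, the RNA-binding protein Msi1 by 1.99 ± 0.19 and the membrane glycoprotein Gpm6a by 1.65 ± 0.16. Tubb3 and Msi1 were also high in ESC (6.74 and 6.38 and 6.86 and 6.58), and Crabp2 and Gpm6a were not (6.07 and 6.26 and 3.96 and 4.18). Neurog2 and Hes5, of committed neural progenitors, did not pass, with levels of 5.32 and 5.32 in EpiSC against 5.47 and 5.12 in ICM for Neurog2.

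Of 28 tested genes of the primitive endoderm, whose precursors are part of the ICM, 9 fell, 3 rose and 16 did not pass, with a median of -0.72. The shares were 32.1% lower and 10.7% higher, beside 6.80% and 8.48% of all tested genes. Both arrays were above the floor for 26 of these 28 genes in ICM and 23 in EpiSC, so the filter limits these counts too. Gata6, the factor that specifies the lineage, read 4.33 and 4.51 in EpiSC against 8.0 and 8.04 in ICM (-3.60 ± 0.15, adjusted p = 1.31e-06), and its receptor-tyrosine-kinase partner in that lineage, Pdgfra, 4.36 and 4.49 in EpiSC against 8.06 and 7.82 in ICM (-3.51 ± 0.39, adjusted p = 0.000213). Cubn, the endocytic receptor cubilin, fell (-3.69 ± 0.13, adjusted p = 7.22e-07). EpiSC were as low as ESC for Pdgfra and Cubn. The later factors Gata4 (4.91 and 4.97 in EpiSC against 4.88 and 5.24 in ICM) and Sox17 were alike in both groups, near their ESC levels. The 3 rises were Foxa2, the basement membrane protein Nid2 (2.17 ± 0.20, adjusted p = 8.48e-05) and Sparc (1.13 ± 0.17). Sparc did not pass without EpiSC replicate 2 (0.99) or without ICM replicate 1 (0.90).

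Of 26 tested genes of the trophectoderm, the layer that immunosurgery is meant to remove, 11 fell, 2 rose and 13 did not pass (median -0.65). The shares were 42.3% lower and 7.69% higher, beside 6.80% and 8.48% of all tested genes. Both arrays were above the floor for 24 of the 26 genes in ICM and 19 in EpiSC. A member tested through ICM alone had to be lower in EpiSC, so these counts describe the list and carry no support. The summed list stood at a mean level of 6.09 and 5.92 in ICM, 5.14 and 5.31 in EpiSC and 5.28 and 5.22 in ESC. Enpep, glutamyl aminopeptidase, read 3.10 and 3.07 in EpiSC against 8.23 and 8.24 in ICM (-5.15 ± 0.11, adjusted p = 1.11e-07). The water and glycerol channel Aqp3 (-2.33 ± 0.17), the lysosomal lipid transfer protein Gm2a (-2.67 ± 0.16) and the tetraspanin Tspan8 (-2.79 ± 0.31) fell. Cdx2, the factor that defines the lineage, read 4.21 and 4.33 in EpiSC against 5.76 and 5.02 in ICM; its difference of -1.12 ± 0.24 (adjusted p = 0.00632) did not pass without ICM replicate 1 (-0.75; adjusted p = 0.0256). The keratins Krt8 and Krt18 did not pass (-0.80 ± 0.33 and -0.53 ± 0.31), though Krt8 did without EpiSC replicate 2 (-1.24). Eomes, a further factor of the lineage, did not pass either, as given above. The part of residual trophectoderm cells in these differences was not tested.

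Preimplantation gene families accounted for many of the deepest falls. Of 41 cleavage-stage genes listed, 36 had a probe set and 19 were tested; 8 fell and the other 11 did not pass. A gene tested only because it is bright in ICM had to be lower elsewhere, so these counts describe the list and carry no support. Pramel6 and Pramel7, which promote the naive state and hypomethylation in the early embryo, read 4.38 and 4.24 in EpiSC against 9.30 and 9.26 in ICM and 3.78 and 3.42 in EpiSC against 8.61 and 8.51 in ICM (-4.97 ± 0.15 and -4.96 ± 0.15, adjusted p = 2.57e-07 and 2.98e-07). Trim43a and Trim43b, from a duplicated family of ubiquitin ligase genes, fell (-4.84 ± 0.13 and -3.83 ± 0.15). ESC were as low as EpiSC for all 4, with 3.87 and 3.71 for Pramel7. Trim43c, a close paralogue, went the other way without passing (0.54 ± 0.21), and the translation factor genes Eif1a and Eif1ad stayed at 0.02 ± 0.13 and -0.55 ± 0.14. Of 30 Prame-like genes by symbol, a group chosen after the values were seen, 10 were tested. Of these 8 fell (80%) and 1, Pramel34, rose (1.46 ± 0.20), beside 6.80% and 8.48% of all tested genes. The filter limits these counts as it does those of the cleavage-stage list, and they carry no support. With the mean of a gene's probe sets in place of the brightest, no member of the family passed as higher. Copies in these families are near-identical, so probes may read more than 1 of them.

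Of 54 oocyte and maternal genes 22 were tested and 6 fell; here too a member tested through ICM alone had to be lower elsewhere, and 16 of the 22 were above the floor on both ICM arrays against 11 on both EpiSC arrays. Besides Dppa3 and Khdc3 these were the oocyte homeobox gene Obox6 (-2.32 ± 0.17), Tcl1, a kinase coactivator (-1.31 ± 0.26), Nlrp4c (-2.21 ± 0.22) and Nlrp4f (-1.21 ± 0.24), which did not pass without EpiSC replicate 1 (-0.92). Ooep, a partner of Khdc3 in the maternal complex, read 5.36 and 5.22 in EpiSC against 6.12 and 6.29 in ICM (-0.91 ± 0.18), under the fold threshold, and ESC read 7.71 and 7.56. The promoters of the Prame-like genes, as RefSeq lists 250 bases before to 50 after the start (build GRCm38.p6), held a median of 2 CpG in 300 bases over 8 matched genes, and the cleavage-stage list 3 over 11. The 10611 tested genes with a promoter entry held a median of 21, the called falls 19 and the called rises 22.

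Members of the DNA methylation machinery changed in both directions. The shares past the threshold were 16.7% each way, beside 8.48% higher and 6.80% lower over all tested genes. Dnmt3b, which establishes methylation after implantation, read 9.82 and 9.64 in EpiSC against 7.88 and 8.05 in ICM (1.77 ± 0.14, adjusted p = 3.52e-05), and EpiSC exceeded ESC by 2.00 ± 0.14. Its cofactor Dnmt3l went down, reading 4.49 and 4.45 in EpiSC against 5.80 and 6.02 in ICM (-1.44 ± 0.14, adjusted p = 0.000104), with 7.22 and 7.0 in ESC. The maintenance enzyme Dnmt1 differed by 0.78 ± 0.13 and its guide Uhrf1 by 0.28 ± 0.14, both under the fold threshold, while the Uhrf1 paralogue Uhrf2 rose by 1.23 ± 0.14 (adjusted p = 0.000246). Of the dioxygenases, Tet2 fell as given above, and Tet1 read 7.06 and 6.98 in EpiSC against 7.98 and 8.31 in ICM (-1.12 ± 0.18, adjusted p = 0.00177); Tet1 did not pass without ICM replicate 2 (-0.96). In the list as a whole 4 of 24 tested genes rose and 4 fell, and the rises numbered 2 without EpiSC replicate 1 or ICM replicate 1. Among germline genes known to be silenced by promoter methylation, 9 of 25 tested fell and 2 rose, out of 47 listed and with the same limit as for the oocyte genes. Rpl10l, a testis ribosomal protein retrogene, read 2.96 and 4.27 in EpiSC against 8.21 and 8.26 in ICM (-4.62 ± 0.35); the piRNA factors Asz1 (-2.79 ± 0.13) and Mael (-2.07 ± 0.22) and the synaptonemal gene Sycp1 (-2.08 ± 0.19) fell. Asz1, Mael and Sycp1 were as low in ESC. The helicase Ddx25 (2.74 ± 0.19) and Tdrkh (1.76 ± 0.21) rose.

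Of 40 tested imprinted genes 14 rose in EpiSC, 4 fell and 22 did not pass, with a median of 0.44. Paternally expressed Peg10 read 7.96 and 8.43 in EpiSC against 5.25 and 5.20 in ICM (2.97 ± 0.17, adjusted p = 6.1e-06), Peg3 8.49 and 8.43 in EpiSC against 5.67 and 5.64 in ICM (2.81 ± 0.11, adjusted p = 1.23e-06) and Mest rose by 2.39 ± 0.14. Maternally expressed Phlda2, a brake on placental growth, read 6.6 and 7.07 in EpiSC against 3.30 and 3.06 in ICM (3.66 ± 0.24), the receptor adaptor Grb10 rose by 3.55 ± 0.15 and the cell cycle inhibitor Cdkn1c by 1.86 ± 0.20. The tetraspanin Cd81, imprinted in placenta, rose by 4.05 ± 0.29. Igf2r, the maternally expressed scavenger of Igf2, and the amino acid transporter Slc38a4 fell, at -1.43 ± 0.27 and -1.57 ± 0.16 (adjusted p = 0.00369 and 0.000156). The long RNA Meg3 read 7.56 and 7.71 in EpiSC against 6.84 and 6.57 in ICM (0.93 ± 0.14), under the fold threshold, and passed without ICM replicate 1 (1.06) and, at the fold threshold, without EpiSC replicate 1. Arrays of this kind do not separate the parental alleles.

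Xist, the RNA that coats the inactive X chromosome, is listed with the imprinted genes because its maternal copy is silent in the early embryo. It read 3.75 and 4.37 in EpiSC against 9.29 and 9.34 in ICM. The difference was -5.26 ± 0.23 (adjusted p = 1.59e-06), and ESC, at 4.28 and 4.50, were as low as EpiSC. FGF-ESC read 8.19 and 7.72. Of the X-linked and Y-linked list 2 of 14 tested genes rose (14.3%) and 1 fell (7.14%), beside 8.48% and 6.80% of all tested genes. The Y-linked Uty read 6.19 and 6.30 in EpiSC against 5.09 and 4.71 in ICM (1.34 ± 0.17, adjusted p = 0.000501) and the X-linked ligase Rlim, an activator of Xist, 8.0 and 8.29 in EpiSC against 8.83 and 8.95 in ICM (-0.74 ± 0.13, adjusted p = 0.00277), under the fold threshold. The sex of the lines and embryos was not given in the sources used here, and its part in the Xist difference was not tested.

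Many glycolytic genes were higher in EpiSC, and few respiratory chain genes passed. Of 28 tested genes of glycolysis and pyruvate use 12 rose and 1 fell (median 0.74). Pdk1, the kinase that keeps pyruvate out of the mitochondrion by blocking pyruvate dehydrogenase, read 7.53 and 7.61 in EpiSC against 3.52 and 3.65 in ICM (3.98 ± 0.17, adjusted p = 1.72e-06). Its relative Pdk3 rose by 2.27 ± 0.15, the enzymes Tpi1, Pgk1, Pfkl and Pkm by 2.08 ± 0.12, 1.81 ± 0.14, 1.80 ± 0.17 and 1.3 ± 0.12, and the glucose transporter Slc2a3 by 1.74 ± 0.23. The single fall was Mpc1, a subunit of the mitochondrial pyruvate carrier, which read 3.83 and 3.82 in EpiSC against 6.79 and 6.24 in ICM (-2.69 ± 0.35, adjusted p = 0.000501). Both of these genes have a second probe set that did not pass, at 0.95 (adjusted p = 0.0154) for Pdk1 and -0.35 (adjusted p = 0.0538) for Mpc1, so their calls rest on 1 of 2 probe sets that disagree. Gapdh (0.27 ± 0.12) and the transporter Slc2a1 (-0.06 ± 0.17) did not pass. ESC shared the high levels of Pdk1 (8.48 and 8.52), Tpi1 (9.97 and 9.94) and Slc2a3 (8.60 and 8.62), and EpiSC minus ESC was -0.94 ± 0.17 for Pdk1 and -1.26 ± 0.23 for Slc2a3 (adjusted p = 0.00679 and 0.00606). Of 60 tested genes of oxidative phosphorylation 1 passed, Cox7a1, the muscle-type subunit of cytochrome oxidase (6.61 and 6.80 in EpiSC against 8.15 and 8.07 in ICM; -1.41 ± 0.22). A further gene passed without EpiSC replicate 2 or ICM replicate 2, and the median of that list was -0.15.

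Genes of cholesterol synthesis and amino acid supply were among the rises. Of 25 tested cholesterol genes 10 rose and 15 did not pass (median 0.88). Hmgcs1, which makes the pathway's first committed intermediate, read 9.48 and 9.39 in EpiSC against 7.71 and 7.43 in ICM (1.86 ± 0.14, adjusted p = 2.19e-05), Sqle, the squalene epoxidase, rose by 2.06 ± 0.19, the methylsterol oxidase Msmo1 by 2.38 ± 0.14 and the master regulator Srebf2 by 1.44 ± 0.12. Serum replacement and serum differ in lipid content and ICM had neither; the part of the medium was not tested. In the amino acid list 13 of 31 tested genes rose and 3 fell (median 0.53). The neutral amino acid transporters Slc38a2 (8.38 and 8.50 in EpiSC against 4.65 and 3.88 in ICM; 4.17 ± 0.22) and Slc38a1 (8.54 and 8.65 in EpiSC against 5.38 and 5.41 in ICM; 3.2 ± 0.12) and the exchanger subunit Slc7a7 (8.90 and 9.13 in EpiSC against 5.17 and 5.29 in ICM; 3.79 ± 0.13) had adjusted p-values of 4.73e-06, 9.73e-07 and 5.2e-07. The one-carbon enzymes Shmt2 and Mthfd1l rose by 1.93 ± 0.14 and 2.06 ± 0.14. Slc1a1, a glutamate and aspartate transporter of the early embryo, took the opposite course reading 3.58 and 3.60 in EpiSC against 8.63 and 8.94 in ICM (-5.20 ± 0.15, adjusted p = 2.53e-07), and Gldc, the glycine cleavage decarboxylase, fell (-1.27 ± 0.12).

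Of 40 tested lysosome and autophagy genes 14 were lower in EpiSC and 1 higher (2 without ICM replicate 1), with a median of -0.62. Apart from Calcoco2, the protease Ctsc read 4.88 and 5.61 in EpiSC against 9.27 and 9.19 in ICM (-3.98 ± 0.32, adjusted p = 3.56e-05). Ulk1, the kinase that starts autophagy, read 5.99 and 6.30 in EpiSC against 9.0 and 9.18 in ICM (-2.95 ± 0.15, adjusted p = 3.74e-06) and Gabarapl2, which coats autophagosomes, 7.19 and 7.10 in EpiSC against 9.51 and 9.60 in ICM (-2.41 ± 0.13, adjusted p = 4.96e-06). The hexosaminidase Hexa fell (-1.3 ± 0.11). Lamp1 (-0.87 ± 0.15) and the protease Ctsl (0.16 ± 0.12) did not pass, and Lipa, the acid lipase, rose by 1.96 ± 0.34 (adjusted p = 0.00223). Genes of lysosome formation are known to share an E-box bound by the TFEB family. The letters TCACGTGA, the same on both strands, stand in the promoters of 5 of 32 matched list members (15.6%) and of 215 of 10611 tested genes with a promoter entry (2.03%). Over the comparison as a whole the motif was no more common among called genes: 1.75% of rises, 1.79% of falls and 2.07% of genes not called.

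The 5 promoters are shown as 30 bases around the motif (capitals), 5′ to 3′ on the gene's strand, from RefSeq's GRCm38.p6 entries, and these genes, other than by their list, were chosen after the values were seen. They lie at chr2:164833745-164833774 (Ctsa, motif at -13, with another at 5 that is not shown), chr7:142387912-142387941 (Ctsd, at -99), chr8:3500458-3500487 (Mcoln1, at -46), chr8:105566054-105566083 (Atp6v0d1, at -4) and chr16:44139377-44139406 (Atp6v1a, at -132), with positions of the motif's first base counted from the transcription start.
Ctsa: acaatgagcaaactgTCACGTGAtgcagat
Ctsd: cccctcgcccgcgtcTCACGTGAcccgttg
Mcoln1: gttcaggcgccccgcTCACGTGAccgcggc
Atp6v0d1: caggccctactgcggTCACGTGAgacgcgg
Atp6v1a: ttttttttttttaaaTCACGTGAtaggctt
The protective protein Ctsa read 6.67 and 7.03 in EpiSC against 8.82 and 8.97 in ICM (-2.04 ± 0.18, adjusted p = 6.78e-05) and the protease Ctsd 8.09 and 8.23 in EpiSC against 9.70 and 9.87 in ICM (-1.62 ± 0.15, adjusted p = 6.8e-05). The calcium channel Mcoln1 (-0.55 ± 0.21) and the proton pump subunits Atp6v0d1 (-0.63 ± 0.15) and Atp6v1a (-0.45 ± 0.13) did not pass, so 2 of the 5 genes with the letters were among the falls. Their adjusted p-values were 0.0731, 0.0122 and 0.0258.

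Most of the tested Bex, Tceal and stathmin genes rose. The Bex and Tceal genes are a mammalian X-linked group of small proteins, many of them expressed in neurons. Of 14 tested genes of the list 9 rose, 1, Stmn3, fell (-1.37 ± 0.17) and 4 did not pass, with a median of 1.5. Bex4 read 9.71 and 9.86 in EpiSC against 5.42 and 5.01 in ICM (4.57 ± 0.17, adjusted p = 7.78e-07) and Bex3, also called Ngfrap1, 10.47 and 10.48 in EpiSC against 6.99 and 7.2 in ICM (3.38 ± 0.12, adjusted p = 7.78e-07). Tceal8 rose by 1.5 ± 0.13 and Tceal1, named after its values were seen, by 1.51 ± 0.20 (adjusted p = 4.73e-05 and 0.000523). Tceal3 (4.31 and 4.20 in EpiSC against 4.37 and 4.17 in ICM), Tceal5 (0.61 ± 0.12) and Tceal6 (-0.66 ± 0.14) did not pass. ESC were near EpiSC for Bex3 and Bex4, at 10.29 and 10.39 and 9.54 and 9.57.

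The E-box letters were in the promoters of 6 of 11 matched genes of this list (54.5%), and in all 6 the letters TGACG precede them by 6 or 8 bases. This arrangement (TGACG, then 6 or 8 unspecified bases, then TCACGTGA, on both strands) was searched for after it was seen. It stands in 10 of 27025 genes with a promoter entry (0.037%). All 10 were among the tested genes, of which 5 rose, 1 fell and 4 were not called. Of all 10611 tested genes with a promoter entry, 856 rose and 727 fell. The 10 include the 6 of this list, in which the arrangement was seen, so these counts carry no support. The 6 windows of 30 bases, with both elements in capitals, set the risers beside genes that did not pass. They lie at chrX:136707965-136707994 (Tceal1), chrX:136172221-136172250 (Tceal8), chrX:136270264-136270293 (Bex3), chrX:136666362-136666391 (Tceal3), chrX:136203886-136203915 (Tceal5) and chrX:135210688-135210717 (Tceal6), each within 30 bases of a listed start.
Tceal1: tgTGACGcgctccccTCACGTGAccaggag
Tceal8: ttgaTGACGcgatccTCACGTGAccagcag
Bex3: agTGACGcagggcccTCACGTGAcccgggg
Tceal3: cgggTGACGcggtgtTCACGTGAccggcca
Tceal5: ctggTGACGttcctgTCACGTGAtcaggag
Tceal6: agggTGACGctttgcTCACGTGActggctt
Of these genes Tceal1, Tceal8 and Bex3 rose, by 1.51, 1.5 and 3.38, and the remaining 3 did not pass. Whether the letters are bound by any factor in these cells is not measured by the arrays.

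The precursors of the miR-302 and miR-367 cluster, a microRNA locus active in the postimplantation epiblast, were higher in EpiSC than in every other group. MicroRNA precursors as a group, chosen after the values were seen, had 18 of 164 tested members higher and 2 lower. Only 164 of 483 precursors were tested, and several risers passed the filter through the EpiSC arrays alone, so these counts too carry no support. The lower count was 1 to 5 when an array was left out, 4 with no filter and 1 with the replicate block. Mir367 read 5.58 and 5.72 in EpiSC against 2.5 and 2.34 in ICM, with 2.34 and 2.47 in ESC and 2.42 and 2.75 in FGF-ESC (3.23 ± 0.15, adjusted p = 2.02e-06). Mir302a read 5.69 and 5.73 in EpiSC against 2.56 and 3.16 in ICM (2.85 ± 0.19, adjusted p = 1.24e-05) and Mir302c 5.98 and 6.12 in EpiSC against 4.81 and 3.81 in ICM (1.75 ± 0.37, adjusted p = 0.00631). Mir302d and Mir302b rose by 1.32 ± 0.17 and 1.1 ± 0.24; Mir302b did not pass without EpiSC replicate 1 (0.97; adjusted p = 0.0561) or without ICM replicate 2 (0.87). For each of the 5 precursors both EpiSC arrays were above the other 6 arrays. EpiSC minus ESC passed for all 5, between 1.37 for Mir302d and 3.24 for Mir367. The cluster lies on chromosome 3 inside the gene Larp7, also named after its values were seen, whose own probe set read 8.70 and 8.75 in EpiSC against 8.78 and 8.84 in ICM (-0.09 ± 0.14, adjusted p = 0.678).

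A related family on the X chromosome differed too. Mir363 read 6.33 and 5.73 in EpiSC against 2.63 and 2.55 in ICM (3.44 ± 0.29, adjusted p = 4.36e-05), and Mir18b of the same X-linked cluster 5.49 and 4.75 in EpiSC against 2.69 and 2.83 in ICM (2.36 ± 0.23, adjusted p = 0.000104). Mir20a, from a paralogous cluster, rose (1.15 ± 0.27) and did not pass without EpiSC replicate 2 (1.05; adjusted p = 0.0728) or without ICM replicate 2 (0.75). FGF-ESC were as high as EpiSC for Mir363 and Mir18b, at 6.08 and 6.94 and 5.31 and 5.64, and ESC lay between, at 3.89 and 3.73 and 3.66 and 3.60. The mature sequences that RefSeq gives for these precursors, with the seed (bases 2 to 8) in capitals, fall into families: miR-302b and miR-302d share the seed AAGUGCU, and miR-367 and miR-363 share AUUGCAC although they come from different chromosomes. The entry for miR-302c starts 1 base later, so that its seed as listed is AGUGCUU. On GRCm38.p6, miR-302b-3p lies at chr3:127545275-127545297, miR-302c-3p at chr3:127545406-127545427, miR-302d-3p at chr3:127545665-127545687 and miR-367-3p at chr3:127545779-127545800, all on the plus strand. On the minus strand of the X chromosome, miR-363-3p lies at chrX:52741697-52741718 and miR-18b-5p at chrX:52742381-52742403.
miR-302b-3p: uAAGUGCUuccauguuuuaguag
miR-302d-3p: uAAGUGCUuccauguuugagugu
miR-302c-3p: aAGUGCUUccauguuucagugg
miR-367-3p: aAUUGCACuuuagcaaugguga
miR-363-3p: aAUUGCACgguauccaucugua
miR-18b-5p: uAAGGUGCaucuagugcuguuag
The arrays read precursor or host transcript sequence, and the mature forms printed here were not measured. Levels of several precursors lay under the floor in the other groups, so these fold changes too rest on groups near background.

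**Figure D4:**
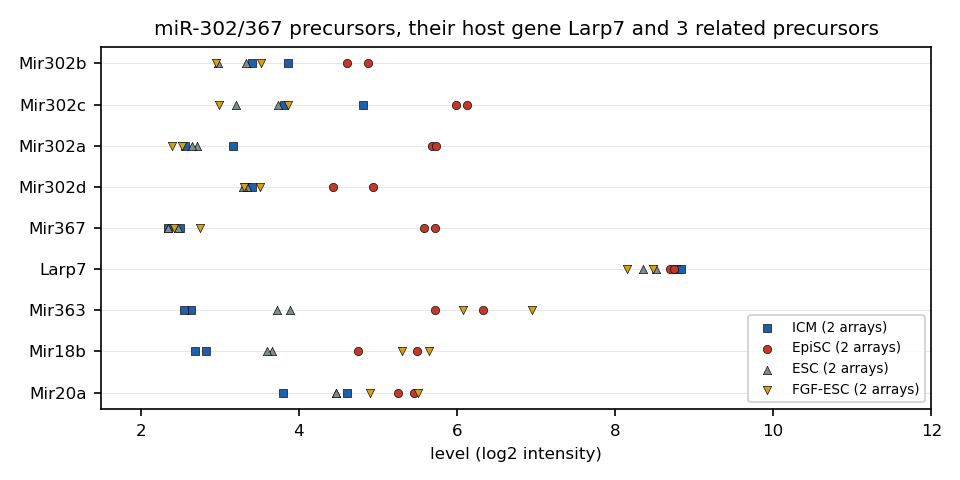
Levels (log2 intensity, x axis) of the 5 precursors of the miR-302 and miR-367 cluster, their host gene Larp7 and 3 related precursors, with 1 symbol per array and 2 arrays per group. The EpiSC arrays stand to the right of all others for the 5 cluster members, between 4.43 and 6.12, while Larp7 lies between 8.15 and 8.84 in every group; Mir363 and Mir18b are high in EpiSC and FGF-ESC.

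Of 33 tested genes of the epithelial and mesenchymal list 11 were lower in EpiSC, 4 were higher and 18 did not pass. The tight junction proteins Cldn7 (5.26 and 4.46 in EpiSC against 7.92 and 7.87 in ICM; -3.04 ± 0.26, adjusted p = 4.8e-05) and Cldn4 (4.69 and 4.51 in EpiSC against 7.0 and 7.16 in ICM; -2.48 ± 0.14, adjusted p = 6.06e-06) fell, with Ocln at -1.60 ± 0.17, the splicing factor Esrp2 at -1.92 ± 0.15 and the protease inhibitor Spint1 at -2.05 ± 0.18. Vimentin (Vim), an intermediate filament of mesenchyme, read 9.66 and 9.96 in EpiSC against 6.58 and 6.46 in ICM (3.29 ± 0.24, adjusted p = 2.24e-05). The membrane protease Mmp14 rose by 3.33 ± 0.35 and the repressor Zeb1 by 1.19 ± 0.22, while the repressor Snai1 did not pass (-0.80 ± 0.50). Cdh1, E-cadherin, is named here after its values were seen: it read 7.62 and 8.66 in EpiSC against 9.80 and 9.50 in ICM (-1.51 ± 0.31, adjusted p = 0.0057), and without EpiSC replicate 1 it did not pass (-0.99). The adhesion molecule Epcam stayed at -0.79 ± 0.18. Fibroblast genes stood beside these rises. Of 29 tested genes of the fibroblast and feeder list 11 rose and 1 fell, and the mean level of the list was 5.30 and 5.57 in EpiSC, 4.42 and 4.64 in ICM and 8.80 and 7.70 in FGF-ESC. Both arrays were above the floor for 22 of the 29 genes in EpiSC, 14 in ICM and 29 in FGF-ESC. The number of rises was 7 without EpiSC replicate 2 and 5 without ICM replicate 1. The defining collagen Col1a1 read 5.52 and 6.11 in EpiSC against 4.98 and 5.12 in ICM (0.77 ± 0.70, adjusted p = 0.435) and Col1a2 6.58 and 6.95 in EpiSC against 3.13 and 3.11 in ICM (3.64 ± 0.23, adjusted p = 1.1e-05), with 10.42 and 9.69 in FGF-ESC; the other Col1a2 probe set did not pass (0.70, adjusted p = 0.284). Thy1 read 6.13 and 6.38 in EpiSC against 6.5 and 6.70 in ICM. The part of feeder RNA in the EpiSC levels of Vim, Mmp14 and the interferon genes below was not tested.

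Antigen presentation and interferon-induced genes were higher in 13 of 22 tested members (59.1%, beside 8.48% of all tested genes), and the other 9 did not pass (median 1.48). Besides Ifitm3, the tetherin gene Bst2 read 10.76 and 10.64 in EpiSC against 7.16 and 6.31 in ICM (3.97 ± 0.26, adjusted p = 1.23e-05), Ifi27 6.97 and 6.78 in EpiSC against 3.70 and 3.84 in ICM (3.10 ± 0.17, adjusted p = 6.01e-06) and B2m, the shared light chain of class I molecules, 9.29 and 9.38 in EpiSC against 7.28 and 7.42 in ICM (1.99 ± 0.12, adjusted p = 1.05e-05). The immunoproteasome subunit Psmb10 rose by 2.38 ± 0.18, and its partner Psmb9 did not pass (-0.86 ± 0.18). The class I gene H2-K1, from a family of similar genes, read 7.49 and 7.71 in EpiSC against 7.95 and 8.20 in ICM (-0.48 ± 0.21, adjusted p = 0.115). The GTPases Igtp, Irgm1 and Irgm2, named after their values were seen, rose by 3.93 ± 0.43, 3.88 ± 0.32 and 3.45 ± 0.49. ESC, grown without feeders, shared the level of Ifitm3 but not of Ifi27 (3.11 and 3.60) or Igtp (3.93 and 4.17). FGF-ESC, which had the highest fibroblast levels, read 8.21 and 8.18 for Ifi27 and 9.09 and 7.42 for Igtp.

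Surface and guidance genes changed in both directions. Of 38 tested adhesion and matrix receptor genes 11 rose (28.9%) and 7 fell (18.4%), beside 8.48% and 6.80% of all tested genes (median -0.03). Cd24a, a surface glycoprotein of progenitors, read 10.44 and 10.54 in EpiSC against 8.58 and 7.92 in ICM (2.24 ± 0.24), and the proteoglycans Gpc3 and Sdc2 rose by 2.87 ± 0.20 and 2.34 ± 0.22. Nid1, a basement membrane linker, fell (-2.75 ± 0.27), opposite to its relative Nid2 (2.17). The tetraspanin Cd9, a marker of naive cells, read 6.78 and 7.12 in EpiSC against 8.67 and 8.57 in ICM (-1.67 ± 0.15; -0.86 and not past the threshold with the mean of its probe sets), and the proteoglycan Sdc4 fell (-1.85 ± 0.14). In the axon guidance list 11 of 33 tested rose (33.3%) and 3 fell (9.09%), beside the same shares of all tested genes (median 0.40). The semaphorin Sema6a read 7.47 and 7.36 in EpiSC against 3.35 and 3.94 in ICM (3.76 ± 0.30, adjusted p = 3.63e-05), and the ephrin receptors Epha1 and Epha2 rose by 2.34 ± 0.16 and 2.55 ± 0.19, whereas Epha4 fell (-1.23 ± 0.12). Sema6a and Epha1 were low in ESC, at 3.41 and 3.80 and 4.59 and 4.85.

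Cell cycle genes that changed were mostly cyclins and kinases of the first gap phase. Of 37 tested genes 9 rose (24.3%, beside 8.48% of all tested genes) and 28 did not pass (median 0.48). Ccnd2 read 7.48 and 7.09 in EpiSC against 4.06 and 4.03 in ICM (3.24 ± 0.32, adjusted p = 0.000117), Ccnd1 8.28 and 8.41 in EpiSC against 5.98 and 6.0 in ICM (2.35 ± 0.20, adjusted p = 4.86e-05) and Cdk6 7.41 and 7.57 in EpiSC against 4.33 and 3.82 in ICM (3.41 ± 0.18, adjusted p = 4.18e-06). Cdk4 and Ccne1 rose by 1.29 ± 0.12 and 1.59 ± 0.12, and the mitotic Cdk1 (0.16 ± 0.16) and Ccna2 (0.19 ± 0.16) did not pass. Ccnd1 (8.06 and 8.02) and Cdk6 (7.42 and 7.37) were also high in ESC and Ccnd2 was not (4.13 and 4.15). Chromatin regulators were near the background, with 3 of 44 higher and 4 lower. The SWI/SNF ATPase Smarca2 (-1.84 ± 0.24) and the NuRD subunit Mta3 (-1.45 ± 0.12) fell, and the paralogue Mta1 rose (1.5 ± 0.15). The polycomb methyltransferase Ezh2 did not pass (9.10 and 9.09 in EpiSC against 9.02 and 9.07 in ICM), and its paralogue Ezh1 fell (-1.19 ± 0.18) but did not pass without ICM replicate 2 (-0.91).

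**Figure D5:**
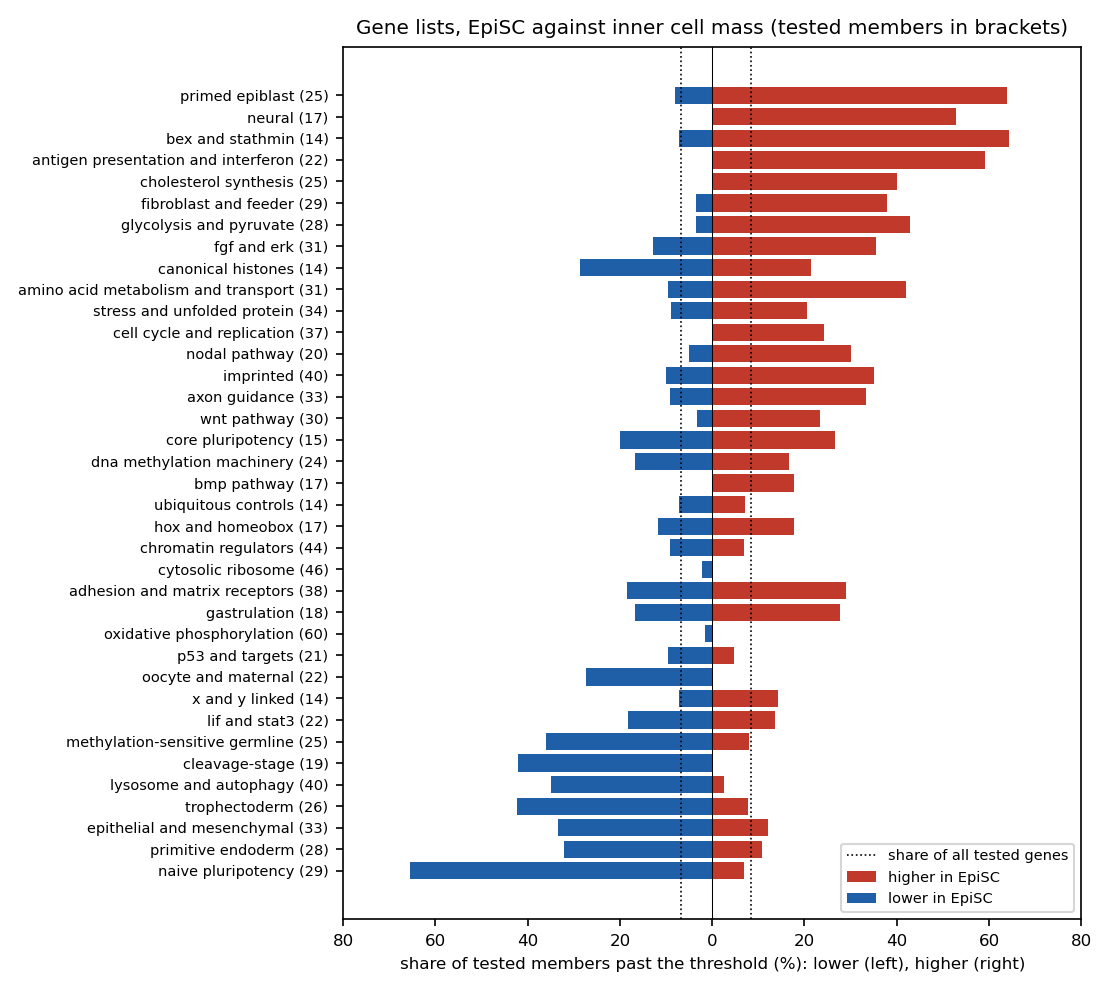
For each list the share of its tested members (number in brackets) past the threshold, with higher in EpiSC to the right in red and lower to the left in blue, in percent; the dotted lines are the shares over all tested genes, 8.48% and 6.80%. Lists are ordered by their median log2 fold change, from the naive list (-1.86) to the primed epiblast list (1.77).

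Genes used as references were mostly level. Of 46 tested cytosolic ribosome genes 1 passed, Rps29 (7.62 and 7.77 in EpiSC against 9.39 and 9.31 in ICM; -1.66 ± 0.13), or 2 without ICM replicate 2, and Rplp1 and Rpl13 differed by 0.22 ± 0.12 and 0.01 ± 0.11. Among 14 ubiquitous controls, Gapdh, Eef1a1 (0.12 ± 0.11) and Eef2 (0.05 ± 0.12) did not pass, while Hprt fell (-1.65 ± 0.13) and Pgk1 rose (1.81 ± 0.14), with adjusted p = 3.54e-05 and 2.77e-05. The small structural RNA genes, grouped by symbol after the values were seen, rose in 15 of 71 tested members of 85 (21.1%, beside 8.48% of all tested genes). Both arrays were above the floor for 69 of the 71 in EpiSC and 61 in ICM. A member not tested through ICM had an advantage in this direction, so the count carries no support. Their mean level was 6.57 and 6.72 in EpiSC, 6.15 and 6.12 in ICM, 6.49 and 6.48 in ESC and 6.25 and 6.4 in FGF-ESC. ICM was lowest, and its RNA was extracted with a kit of its own. The part of the extraction kit was not tested.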

How the data were processed

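Transcript levels of 8 samples were read on Affymetrix Mouse Gene 2.1 arrays, 2 per group. The authors deposited 1 log2 value per probe set and array; Expression Console 1.3.1 is named in the submitters' processing notes, while background correction and summarisation were not given in the sources used here. Of 41345 probe sets, 23521 carried 1 gene symbol, 1814 several and 16010 none in the platform annotation; a gene was represented by its brightest probe set (highest mean over all arrays). No further normalization was applied. Genes that exceeded 4.24 (the median over every probe set and array) on 2 or more arrays were fitted with limma 3.58.1 in R 4.3.3 as 4 group means over all 8 arrays, with eBayes and Benjamini-Hochberg adjustment over 13597 genes; EpiSC minus ESC came from the same fit. A gene was called at an adjusted p below 0.05 with a difference of 1 or more on the log2 scale. On simulated data this fit recovered 91 of 100 genes changed by 1.5 and 100 of 100 changed by 3. The simulation drew independent normal noise for each gene, with no array or kit effect. It changed far fewer genes than were called here, so these rates do not measure the sensitivity of the comparison. The number of arrays limits the precision.

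Genes were named by rule: the 12 largest rises and falls without overlap, a panel of 30, and from each list up to 6 called members per direction and 4 not called with the highest level. The lists and the comparison itself were chosen with earlier results of these data known, and the gene families by symbol, the TGACG arrangement and the genes so marked were added after seeing values, so counts over lists describe and are not tested. EpiSC and ICM arrays of equal replicate number were not treated as pairs (correlation of deviations over genes -0.002882). Alternatives covered normalization, filter, fold minimum, probe set rule, samples in the fit, trend, block and each array left out. Promoter and mature microRNA sequences are RefSeq's (GRCm38.p6).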

Additional observations from a re-analysis of the deposited data

How the results depend on the processing

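Requiring a log2 fold change of at least 2 left 572 genes past the threshold, 305 higher and 267 lower in EpiSC, with 123 of them on the lists, and with no fold minimum there were 5219, of which 2777 were higher and 2442 lower, with 486 on the lists. Under each of the other alternatives the total stayed within 1.5 times the 2078 reported, and no called gene was called the other way in any setting. Leaving out 1 array at a time gave 2009 to 2099 genes, 1074 to 1159 higher and 868 to 970 lower. All 4 of these fits kept 1618 of the 2078 calls (77.9%), 881 higher and 737 lower; each sets 1 array against 2, and the lone array is assumed to vary like the other groups. Whether samples of the same number share more than that number is not known here. With the replicate block 2071 genes passed. Of the named genes, 254 were followed through the settings, and each of these whose call ended or began in another setting is given where it is named. The same holds for each count above 0 of a list described there that moved by over 1.5 times without an array. In further lists, leaving out an array brought 1 oocyte gene past the threshold upwards, 1 gene each of the cholesterol and BMP lists downwards, and 1 or 2 small structural RNAs downwards. The histone list, not described above, went from 3 to 1 higher without EpiSC replicate 1 and from 4 to 2 lower without EpiSC replicate 2, and the p53 list from 1 to 2 higher without ICM replicate 2. With no filter the lower counts of the X and Y and the Bex lists went from 1 to 2. Fold changes of genes under the floor of 4.24 in 1 group are limited by signal over background.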

Other observations

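The EpiSC arrays differed from each other by 1 or more on the log2 scale for 20 tested genes, 13 of which were called against ICM. Replicate 2 was the higher for 16 of them. Fgfbp1, a carrier of FGF ligands, read 5.92 on replicate 1 and 7.93 on replicate 2, and Cer1 read 6.32 and 8.08. The early-response genes Jun (5.18 and 6.41) and Fosb (5.07 and 6.38) and the prostaglandin synthase Ptgs2 (4.25 and 5.57) were also higher on replicate 2, as were the differentiation-linked epidermal gene Krtdap (5.97 and 7.36) and Cdh1 (7.62 and 8.66). Genes of the core and germline lists with such gaps were Fbxo15 (3.62 and 5.25) and Rpl10l (2.96 and 4.27), each far under its ICM level on both arrays. Of the 4 genes higher on replicate 1, Fabp7 (9.36 and 8.15) had the largest gap, and the signalling regulator Rgs2 read 6.68 and 5.61.

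The ICM arrays differed by 1 or more for 80 tested genes, 38 of them called, with replicate 2 the higher for 38 and replicate 1 for 42. Cyp51, a sterol demethylase, read 5.53 on replicate 1 and 3.99 on replicate 2, the melanoma antigen gene Magea8 7.44 and 5.91 and the imprinted zinc finger gene Plagl1 3.67 and 2.17. Of 657 genes with several tested probe sets, 158 had at least 1 past the threshold and 67 had all of them past it in the same direction. The zinc finger gene Zfp979 was the 1 gene with probe sets past the threshold in opposite directions. The genes in these paragraphs were chosen after their values were seen.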
